A study of Mus musculus with 21 samples.

Results

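The 7 genes described here, out of 19752 that the array annotation names through a single symbol, were followed in regenerating and comparison mouse muscle: the stress sensor genes Ankrd1, Ankrd2, Ankrd23 and Csrp3, and the alpha actin genes Acta1, Acta2 and Actc1. They form a list put together with earlier results of these data in view, and Ankrd1 was selected on its measured level, which was high in cardiotoxin-injured muscle of DTR+ mice at day 8. That contrast, DTR+ against DTR- in CTx muscle at day 8, is therefore given for all 7 genes as a description with no test. For Ankrd1 the same holds for every comparison that uses the DTR+ CTx day 8 samples. The DTR- CTx day 8 samples are the other side of that contrast, so Ankrd1 tests that use them are not independent of the choice. Each gene is read by 1 probe set, and all 7 passed the filter on low values.

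The samples were whole tibialis anterior muscles, from the front of the lower leg, of male C57BL/6 mice aged 8 weeks, profiled on 21 Affymetrix Mouse Gene 1.0 ST arrays. DTR+ mice (Foxp3-DTR+) carry a diphtheria toxin receptor meant to act in Foxp3-expressing regulatory T cells, and DTR- mice (Foxp3-DTR-) lack it. Mice of both genotypes were injected with cardiotoxin, a snake venom toxin that destroys muscle fibres, at day 0 and were given diphtheria toxin every other day from then until muscle was taken at day 4 or day 8. The titles divide the samples into CTx and xINJ muscle; since the remaining labels say of both that they received cardiotoxin, xINJ serves here only as a group name taken from the titles. Each DTR- group, CTx or xINJ at day 4 or day 8, has 3 samples. The DTR+ groups have 2 for CTx and 1 for xINJ at day 4, 3 for CTx and 2 for xINJ at day 8, and 1 at day 0; both groups with a single sample entered no comparison. Samples are named by the number in their title. The labels do not say that they came from separate mice, so the p-values measure the spread between samples, which may in part be technical.

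Ankrd1, Ankrd2 and Ankrd23 encode the muscle ankyrin repeat proteins, which bind the elastic I-band part of titin and can move to the nucleus when muscle is stretched or injured. Csrp3 encodes muscle LIM protein, a Z-disc and actin-binding protein of striated muscle whose gene responds to load and fibre type. The alpha actins build contractile thin filaments: Acta1 is the isoform of adult skeletal fibres, Actc1 that of the heart and of fetal and regenerating skeletal fibres, and Acta2 that of vascular smooth muscle, which is also made by myofibroblasts and by young muscle cells.

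Promoter sequence is shown because the genes are textbook targets of factors that bind short DNA motifs. These are serum response factor at the CArG box (CC, then 6 letters each A or T, then GG), TEAD factors at the MCAT motif CATTCC, and myogenic bHLH factors at the E-box CANNTG. RefSeq starts on GRCm38.p6 gave 9 windows for the 7 genes, and the 250 bases before each start were searched on both strands. Only exact matches were counted, so a site that differs from these letters was missed. MCAT was found for 4 of the 7 genes (Ankrd1, Ankrd23, Acta1 and Acta2), in 4 of the 9 windows, against 12.6% of all 32851 windows. CArG was found for 2 (Acta1 and Actc1), in 2 of the 9 windows, against 1.47% of all windows. An E-box was found for 6, all but Actc1, in 7 of the 9 windows, against 66.2% of all windows. The stretches with MCAT or CArG matches for 4 genes follow in lower case, 5′ to 3′ on the gene's strand, with MCAT (CATTCC, or GGAATG where it lies on the other strand) and CArG letters in capitals. All 4 genes lie on the minus strand, and the Acta2 stretch lies inside the span of a longer annotated form of that gene.
Ankrd1, chr19:36119950-36120066, bases -222 to -106 from the start: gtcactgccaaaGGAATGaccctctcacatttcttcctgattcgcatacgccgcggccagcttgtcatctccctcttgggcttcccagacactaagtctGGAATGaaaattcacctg
Acta1, chr8:123894804-123894860, bases -85 to -29: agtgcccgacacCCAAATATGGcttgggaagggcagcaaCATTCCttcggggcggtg
Actc1, chr2:114052901-114052934, bases -59 to -26: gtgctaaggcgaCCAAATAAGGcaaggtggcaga
Acta2, chr19:34255502-34255531, bases -158 to -129: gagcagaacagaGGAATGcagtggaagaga
Ankrd1 thus has a pair of MCAT matches, beginning at -210 and -123, and no exact CArG match in this window. Acta1 has a CArG box at -73 with an MCAT at -46, and Actc1 has a CArG box at -47 alone. These matches describe the letters only; no binding was measured.

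Levels are log2 values of the deposited intensities, so a difference of 1 is a doubling. Differences were tested with limma in a fit over all 21 samples and 13278 genes, two-sided, with Benjamini-Hochberg adjustment over all genes in each comparison; a gene was called higher or lower at an adjusted p under 0.05. The sign ± gives an SD over n samples where n is given and otherwise the standard error of a difference. Median intensity per array lay between 133.05 and 159.53. Foxp3 itself lay at 6.27 to 6.95, around the filter level of 6.62 to 6.84, so its probe set does not check the depletion. DTR- CTx day 4 replicate 1 stood apart, with a mean over 10 myofibre markers of 12.23. The other two samples of its group had 12.91 and 12.90. Its creatine kinase gene Ckm was low as well. DTR- xINJ day 4 replicate 1 carries a time tag of day 8, although its title and preparation say day 4. Since whole muscle was used, fewer cells of a type and less RNA per cell cannot be told apart.

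Ankrd1, the cardiac ankyrin repeat protein gene, lay higher in every CTx sample (lowest 10.50) than in every xINJ sample (highest 9.25). The CTx samples include those for which it was picked. Csrp3 separated in the same way (lowest CTx value 9.68, highest xINJ value 9.52), as did Actc1 (12.92 and 12.25), and Ankrd23 in reverse. In xINJ muscle of DTR- mice Ankrd1 measured 7.96, 8.30 and 8.19 at day 4 and 8.63, 7.99 and 7.66 at day 8. In CTx muscle of the same genotype it measured 10.59, 10.58 and 11.34 at day 4 and 10.50, 11.05 and 10.90 at day 8. The CTx samples were therefore high at both days, and the days overlapped. Ankrd1 was higher in CTx than in xINJ muscle of DTR- mice by 2.69 ± 0.23 at day 4 (adjusted p = 2.78e-08, limma) and by 2.72 ± 0.23 at day 8 (adjusted p = 1.91e-07, limma). The day 8 minus day 4 difference of that effect was 0.04 ± 0.33 (adjusted p = 0.964, limma), with a 95% interval from -0.65 to 0.72. DTR+ CTx muscle measured 10.96 and 10.95 at day 4 and 11.72, 11.97 and 11.92 at day 8, and these 3 were the highest Ankrd1 values of the series. The remaining DTR+ samples measured 8.13 at day 0, 8.08 in xINJ muscle at day 4, and 8.85 and 9.25 in xINJ muscle at day 8. Ordered by mean, xINJ muscle of DTR- mice, the DTR+ xINJ day 4 sample and the day 0 sample lay together at 8.08 to 8.15, followed by DTR+ xINJ day 8 at 9.05. Then came DTR- CTx day 8, DTR- CTx day 4 and DTR+ CTx day 4 at 10.82 to 10.96, whose ranges overlapped, and DTR+ CTx day 8 at 11.87.

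**Figure D1:**
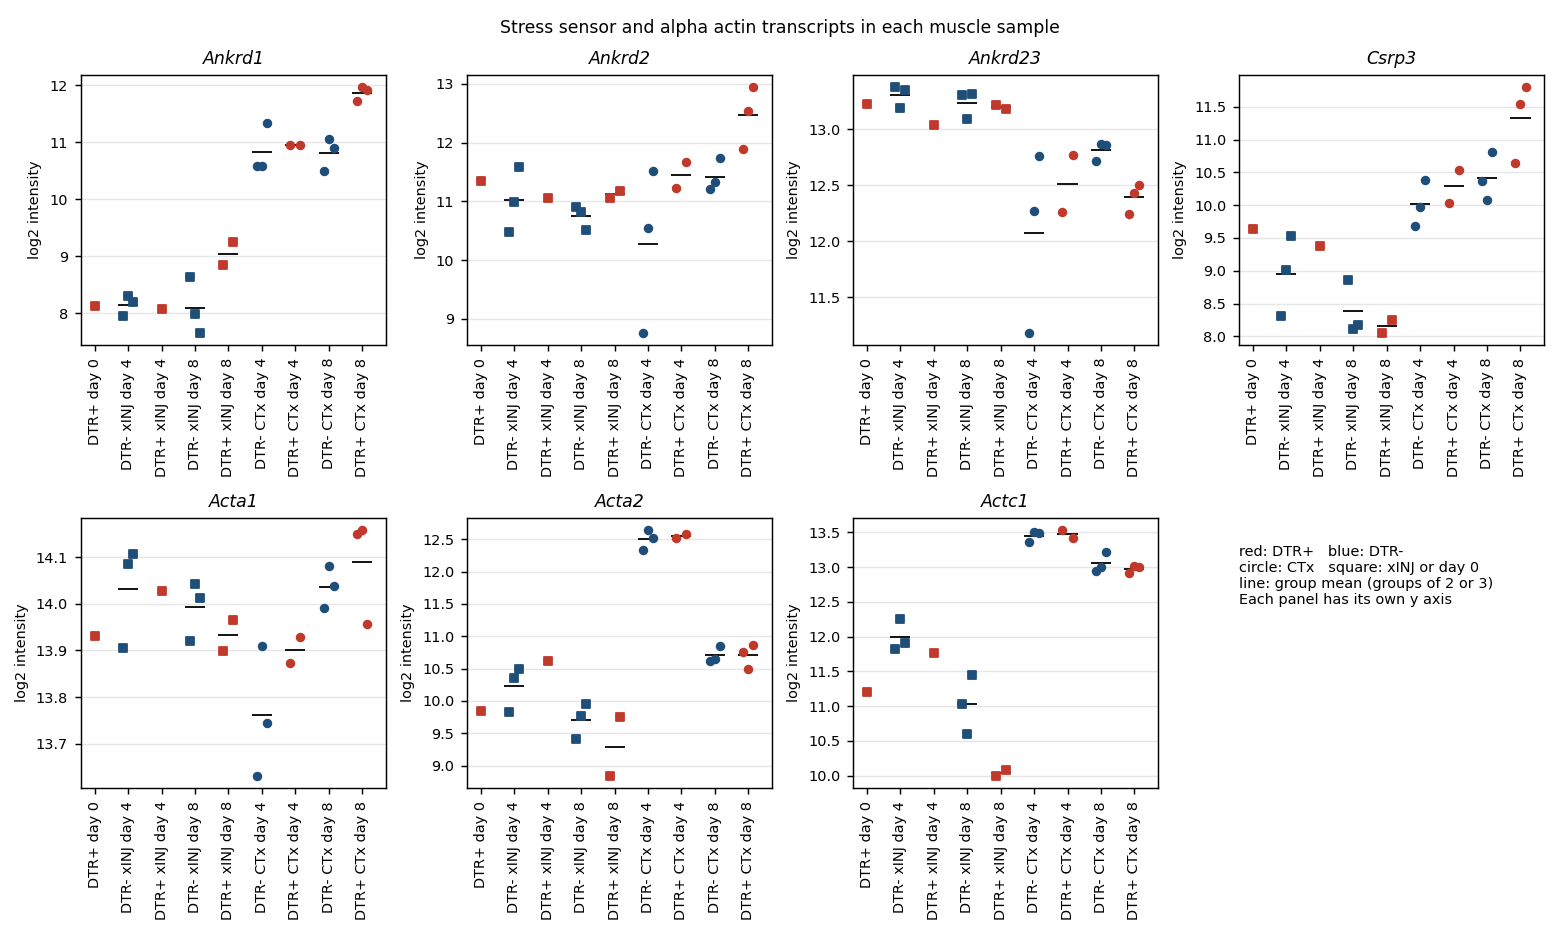
Each panel plots the log2 intensity of 1 gene (y axis, its own range) by title group (x axis), 1 point per sample, red for DTR+ and blue for DTR-, circles for CTx and squares for xINJ or day 0, with a line at the mean of groups of 2 or 3. Ankrd1, Csrp3 and Actc1 sit higher in CTx than in xINJ muscle, Ankrd23 sits lower, Acta2 is highest in CTx muscle at day 4, and all Acta1 values lie between 13.63 and 14.16.

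Ankrd2, the stretch-responsive member typical of slow fibres, varied widely in CTx muscle and did not pass the main test in any comparison in which it was tested. DTR- CTx muscle measured 8.76, 10.55 and 11.52 at day 4, the widest spread of any group for this gene (SD 1.40, n = 3), and 11.20, 11.32 and 11.74 at day 8. DTR- xINJ muscle measured 10.48, 11.00 and 11.58 at day 4 and 10.91, 10.82 and 10.52 at day 8. The low value of 8.76 came from DTR- CTx day 4 replicate 1, the sample low in myofibre markers. At day 4 the CTx minus xINJ difference in DTR- mice was -0.74 ± 0.45 (adjusted p = 0.189, limma), and without that sample it was 0.015. Without replicate 3 of the CTx group it was -1.36 and called (adjusted p = 0.0104). The day 8 difference was 0.67 ± 0.45 (adjusted p = 0.394, limma), although the 3 CTx samples lay above the 3 xINJ samples. It passed in a fit of those groups alone (adjusted p = 0.0129). DTR+ CTx muscle measured 11.23 and 11.66 at day 4 and 11.90, 12.54 and 12.95 at day 8; the 3 day 8 samples were the highest of the series. Between days in CTx muscle the day 8 minus day 4 difference was 1.14 in DTR- mice (adjusted p = 0.0655, limma). It passed with quantile normalization (adjusted p = 0.0454), with the replicate block (adjusted p = 0.0181) and without DTR- CTx day 4 replicate 3 (adjusted p = 0.00293). Without DTR- CTx day 4 replicate 1 it was 0.38, and the fits that left out a sample had adjusted p up to 0.438. In DTR+ mice the difference between days was 1.01 (adjusted p = 0.224, limma), and 0.77 to 1.29 when a sample was left out. It passed with the replicate block (adjusted p = 0.0479) and in a fit of those groups alone (adjusted p = 0.0482). DTR+ xINJ muscle stayed at 11.05 at day 4 and at 11.05 and 11.18 at day 8, and the day 0 sample read 11.34. The CTx minus xINJ difference in DTR+ mice at day 8 was 1.34 ± 0.51 (adjusted p = 0.0593, limma). It passed with quantile normalization (adjusted p = 0.0393), in a fit of those groups alone (adjusted p = 0.00603) and with either form of the replicate block (adjusted p = 0.0473 and 0.0355). Leaving out a sample gave differences of 1.10 to 1.63.

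Ankrd23, the diabetes-related ankyrin repeat protein gene, ran opposite to Ankrd1, with its high values in xINJ muscle. The xINJ and day 0 samples lay at 13.04 or above and every CTx sample at 12.87 or below. DTR- xINJ muscle measured 13.38, 13.19 and 13.35 at day 4 and 13.30, 13.10 and 13.31 at day 8. DTR- CTx muscle measured 11.18, 12.27 and 12.76 at day 4 and 12.71, 12.87 and 12.86 at day 8. At day 4 the groups did not overlap and Ankrd23 was lower in CTx muscle by 1.24 ± 0.26 on the log2 scale (difference -1.24, adjusted p = 0.00056, limma). Without replicate 1 of the CTx group the difference was -0.79, still called. The day 8 difference was -0.42 ± 0.26 (adjusted p = 0.329, limma), and it passed in a fit of those groups alone (adjusted p = 0.0335). From day 4 to day 8 in DTR- CTx muscle Ankrd23 rose by 0.74 ± 0.26 (adjusted p = 0.0345, limma). Without the day 4 replicate 1 the difference was 0.30 (adjusted p = 0.24). Leaving out any of the 3 day 8 samples also ended the call, as did a fit of those groups alone (adjusted p = 0.118). DTR+ CTx muscle measured 12.26 and 12.77 at day 4 and 12.25, 12.43 and 12.50 at day 8, and DTR+ xINJ muscle 13.22 and 13.18 at day 8. Those day 8 groups did not overlap and differed by -0.80 ± 0.29 (adjusted p = 0.0457, limma). Each of the 5 fits that left out a sample ended that call, at adjusted p from 0.0675 to 0.186, as did testing without the filter (adjusted p = 0.0585).

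Csrp3, the muscle LIM protein gene, was higher in CTx than in xINJ muscle at both days in DTR- mice and at day 8 in DTR+ mice. DTR- xINJ muscle measured 8.31, 9.02 and 9.52 at day 4 and 8.85, 8.12 and 8.18 at day 8, against 9.68, 9.97 and 10.39 and then 10.36, 10.08 and 10.81 in CTx muscle. The CTx samples lay above the xINJ samples of the same day without overlap. The difference was 1.06 ± 0.32 at day 4 (adjusted p = 0.00978, limma) and 2.03 ± 0.32 at day 8 (adjusted p = 0.000175, limma). The day 4 call was lost without DTR- xINJ replicate 1 (0.74, adjusted p = 0.0649), with that sample counted at day 8 (adjusted p = 0.0579) and without DTR- CTx replicate 3 (0.87, adjusted p = 0.052). In DTR+ mice CTx muscle measured 10.04 and 10.54 at day 4 and 10.64, 11.54 and 11.80 at day 8, and xINJ muscle 9.37 at day 4 and 8.05 and 8.25 at day 8. The day 8 CTx minus xINJ difference in DTR+ mice was 3.17 ± 0.35 (adjusted p = 3.09e-06, limma), a 9.03-fold difference. The difference from day 4 to day 8 in DTR+ CTx muscle, 1.04 ± 0.35, did not pass (adjusted p = 0.0668, limma). It passed with quantile normalization (adjusted p = 0.0292) and with the replicate block (adjusted p = 0.0164). Leaving out a sample gave differences of 0.79 to 1.39. Csrp3 was 9.64 in the day 0 sample, between the xINJ and the CTx samples.

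Acta1, the skeletal alpha actin gene, moved within 13.63 to 14.16 over all 21 samples and was not called in any comparison in which it was tested. DTR- CTx muscle at day 4 measured 13.63, 13.91 and 13.75, which include the lowest pair of values of the series, against 13.90, 14.09 and 14.11 in xINJ muscle of that day. That difference was -0.27 ± 0.12 (adjusted p = 0.0693, limma), and quantile normalization turned it to 0.02. It passed when arrays were centred on their median (adjusted p = 0.016), with both forms of the replicate block (adjusted p = 0.0462 and 0.0403) and with DTR- xINJ day 4 replicate 1 counted at day 8 (adjusted p = 0.041). At day 8 DTR- CTx muscle measured 13.99, 14.08 and 14.04 and xINJ muscle 13.92, 14.04 and 14.01, a difference of 0.04 with a 95% interval from -0.20 to 0.29. Intensities of 12684.5 to 18277.2 put this probe set near the top of the scale, where the brightest probe set of each array read 20604.0 to 26057.8.

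Acta2, the smooth muscle alpha actin gene, was highest in CTx muscle at day 4 and fell by day 8 in both genotypes. CTx muscle measured 12.34, 12.64 and 12.53 in DTR- and 12.52 and 12.58 in DTR+ mice at day 4, and 10.62, 10.65 and 10.84 in DTR- and 10.76, 10.50 and 10.87 in DTR+ mice at day 8. Days were separated by more than a log2 unit and genotypes overlapped. The fall was 1.79 ± 0.21 in DTR- (difference -1.79, adjusted p = 6.35e-06, limma) and 1.84 ± 0.24 in DTR+ muscle (difference -1.84, adjusted p = 6.87e-05, limma). DTR- xINJ muscle measured 9.83, 10.36 and 10.50 at day 4 and 9.41, 9.77 and 9.95 at day 8, lower than CTx muscle of its day in every sample. Acta2 was higher in CTx than in xINJ muscle of DTR- mice by 2.27 ± 0.21 at day 4 (adjusted p = 7.48e-08, limma) and by 0.99 ± 0.21 at day 8 (adjusted p = 0.00316, limma). In DTR+ mice at day 8 it was higher by 1.42 ± 0.24 (adjusted p = 0.000201, limma), where xINJ muscle measured 8.84 and 9.75. The effect of CTx in DTR- mice was smaller at day 8 than at day 4 by 1.28 on the log2 scale (difference of effects -1.28 ± 0.30, adjusted p = 0.00931, limma), the single member called in that test, where 12.5% of all genes were called. The DTR+ xINJ day 4 sample read 10.62 and the day 0 sample 9.85.

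Actc1, the cardiac alpha actin gene, was higher in CTx than in xINJ muscle at both days in DTR- mice and at day 8 in DTR+ mice. CTx muscle measured 13.36, 13.51 and 13.49 in DTR- and 13.53 and 13.42 in DTR+ mice at day 4, then 12.95, 13.00 and 13.22 and 12.92, 13.02 and 13.00 at day 8. The day 8 values lay below the day 4 values without overlap in both genotypes, with differences of -0.40 and -0.50, but neither passed (adjusted p = 0.0909 and 0.104, limma). The first passed in a fit of those groups alone (adjusted p = 0.045). DTR- xINJ muscle measured 11.82, 12.25 and 11.91 at day 4 and 11.03, 10.60 and 11.45 at day 8, and DTR+ xINJ muscle 9.99 and 10.08 at day 8. CTx muscle was higher by 1.46 ± 0.17 in DTR- mice at day 4 (adjusted p = 1.32e-06, limma), by 2.03 ± 0.17 at day 8 (adjusted p = 1.78e-07, limma), and by 2.94 ± 0.19 in DTR+ mice at day 8 (adjusted p = 1.33e-08, limma). The fall in DTR- xINJ muscle from day 4 to day 8, -0.97 ± 0.17 (adjusted p = 0.0444, limma), was among only 9 of 13278 genes called there (0.0678%, with 0.0603% lower), and its days did not overlap, as for 7.4% of all genes. It was lost in all but 1 of the 6 fits that left out a sample (adjusted p up to 0.352), with quantile normalization (adjusted p = 0.0562) and when DTR- xINJ day 4 replicate 1, whose time tag says day 8, was counted at day 8 (adjusted p = 0.198). The DTR+ xINJ day 4 sample read 11.76 and the day 0 sample 11.20. The coding sequences of the muscle actins are closely alike, and how far each probe set reads the others was not tested. From day 4 to day 8 in CTx muscle Acta2 fell by more than Actc1, and Acta1 stayed within its narrow range. Over the 21 samples Acta2 and Actc1 had Pearson r = 0.847, Acta1 and Acta2 r = -0.432, and Acta1 and Actc1 r = -0.14.

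Read together, CTx muscle of DTR- mice at day 4 had 4 of the 7 genes higher (Ankrd1, Csrp3, Acta2, Actc1) and 1 lower (Ankrd23) than xINJ muscle, where 46.6% of the 13278 genes tested were called (26.1% higher and 20.5% lower). At day 8 the same comparison had those 4 genes higher and none lower, where 13.5% of genes were called (10.4% higher and 3.17% lower). In DTR+ mice at day 8, among the 6 genes tested, 3 were higher (Csrp3, Acta2, Actc1) and Ankrd23 was lower, against 25.3% of genes (16.7% higher and 8.51% lower), and Ankrd1 was 2.82 higher with no test. The median difference over all 7 members was 1.06, 0.99 and 1.42 in these comparisons, and over all genes -0.01, 0.03 and 0.04. The 1.42 includes Ankrd1, which was picked for its level in those samples, so it is a description only. The values of CTx and xINJ samples did not overlap for 5 and 6 of 7 genes in DTR- mice at day 4 and at day 8, against 54.3% and 35.8% of all genes. In DTR+ mice at day 8 they did not overlap for 5 of the 6 tested, against 50.4%. The day 8 comparisons of the genotypes and the day comparisons share their CTx samples with these. From day 4 to day 8, 2 of 7 were called in DTR- CTx muscle (Acta2 lower, Ankrd23 higher; 29.7% of genes, 11.6% higher and 18% lower) and 1 of 6 in DTR+ CTx muscle (Acta2 lower; 11.1% of genes, 2.84% higher and 8.24% lower). The days did not overlap for 3 of 7 genes in DTR- CTx muscle (46.6% of all genes) and for 5 of the 6 tested in DTR+ CTx muscle (35.8%), all but Ankrd23.

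**Figure D2:**
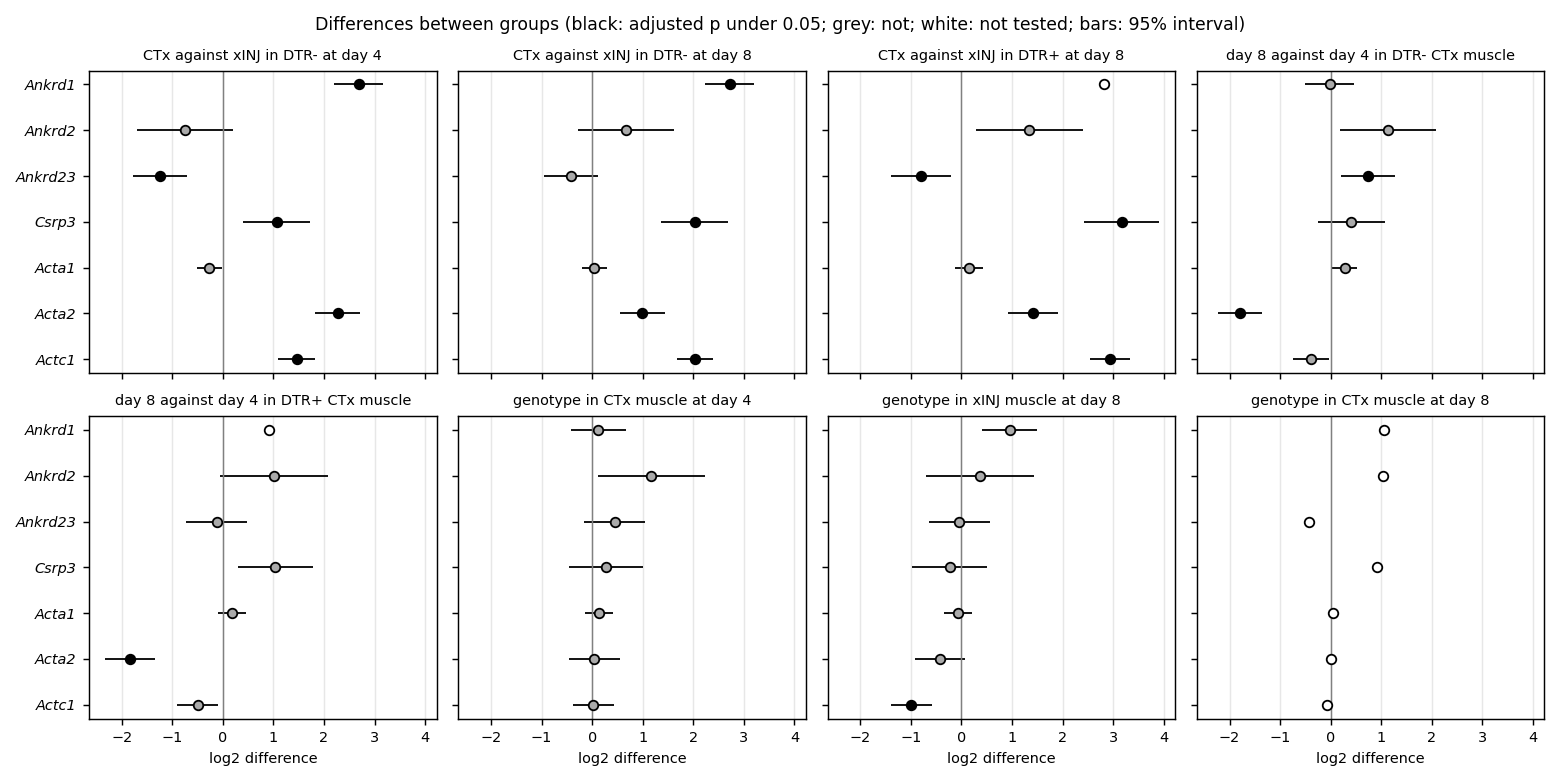
The x axis is the log2 difference (first group minus second, or DTR+ minus DTR- for genotype) and the y axis lists the 7 genes, with 95% intervals; black points have an adjusted p under 0.05, grey points do not, and white points are values with no test. Ankrd1, Csrp3 and Actc1 lie between 1.06 and 3.17 for CTx against xINJ, and Acta2 lies at -1.79 and -1.84 from day 4 to day 8.

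Genotype was compared at 3 points. In CTx muscle at day 8, the contrast used to pick Ankrd1, the DTR+ minus DTR- log2 differences were 1.05 for Ankrd1, 1.04 for Ankrd2, 0.91 for Csrp3, -0.42 for Ankrd23, 0.05 for Acta1, 0.00 for Acta2 and -0.08 for Actc1. Ankrd1, Ankrd2 and Ankrd23 had groups that did not overlap, as had 20.8% of all genes, and Csrp3 overlapped, as the 10.64 of DTR+ replicate 1 lay below the 10.81 of DTR- replicate 3. Listed by title number, the DTR+ and DTR- values of Csrp3 were 10.64 and 10.36, 11.54 and 10.08, and 11.80 and 10.81. The labels do not say that the numbers pair the genotypes, and this was not tested. Ankrd1, Ankrd2 and Csrp3 thus lay about a log2 unit higher in DTR+ muscle, and the actin differences were at most 0.08 in size. In CTx muscle at day 4 none of the 7 passed limma, and 0.00753% of genes, a single gene, did. At an unadjusted p under 0.05 only Ankrd2 did, with 1.17 ± 0.51 (adjusted p = 1, limma). Without DTR- CTx replicate 1, whose Ankrd2 was 8.76, the difference was 0.41, and without DTR- CTx replicate 3 it was 1.79. In xINJ muscle at day 8, 1 of 7 passed, against 2.61% of genes (0.806% lower): Actc1 was lower in DTR+ mice by 0.99 ± 0.19 (difference -0.99, adjusted p = 0.00713, limma), and its groups did not overlap, nor did those of Ankrd1 and Ankrd2, as for 30% of all genes. Leaving out either DTR+ sample, with the remaining 1 assumed to vary like the other groups, gave an adjusted p of 0.118 or 0.0531. Ankrd1 there was higher in DTR+ mice by 0.95 ± 0.26 but did not pass (adjusted p = 0.0583, limma). It passed with quantile normalization (0.0441), with DTR- xINJ day 4 replicate 1 placed at day 8 (0.0222) and without DTR- xINJ day 8 replicate 1 (0.0156). The other leave-outs gave 0.74 to 1.15 with adjusted p up to 0.423. The Ankrd1 genotype difference of 1.05 in CTx muscle and the 0.95 in xINJ muscle at day 8 differed by 0.10. Ankrd1's genotype difference at day 8 exceeded that at day 4 in CTx muscle by 0.94. Neither was tested, because both use the contrast that chose the gene.

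Markers of other cells moved with the same comparisons. All 9 macrophage markers were higher in CTx than in xINJ muscle in DTR- mice at both days and in DTR+ mice at day 8. Their mean per sample was 7.32 to 7.65 in DTR- xINJ muscle at day 8, 8.37 to 8.69 in DTR+ xINJ muscle at day 8, 9.88 to 10.09 in DTR- and 10.86 to 10.97 in DTR+ CTx muscle at day 8, and 11.52 to 12.03 in the DTR- CTx samples of day 4. Between genotypes, 6 of the 9 were higher in DTR+ CTx muscle at day 8, where 3.68% of all genes were called (3.03% higher and 0.655% lower), and 5 of the 9 in xINJ muscle of that day (1.81% of all genes higher), the comparison in which Actc1 was lower. In that same CTx comparison at day 8, all 4 of the T cell markers tested were higher in DTR+ mice (median 1.54). The mean over 5 T cell markers, which include a marker that failed the filter, was 7.16 to 8.02 against 6.19 to 6.44. The DTR- values lay below the filter level of 6.62 to 6.84, and 2 of the 5 markers passed it on all arrays of that group. Of 7 endothelial markers 2 were lower (median -0.59), as were 2 of 7 pericyte markers (median -0.49). Regenerating myofibre markers were higher in CTx muscle too, 8 of 8 in DTR- mice at day 4 and 7 of 8 at day 8, and 9 of 10 myofibre markers were lower at day 4. Their part in the stress sensor and actin differences was not tested. For Acta2, smooth muscle markers could be measured directly: 7 of 8 passed the filter, the regulator Myocd did not, and the mean over the 8 was 7.19 to 7.74 in the 21 samples. Their median CTx minus xINJ difference in DTR- mice at day 4 was -0.22, with Mylk higher and Myh11 and Synpo2 lower, where Acta2 was higher by 2.27. Of 7 fibroblast and matrix markers, 6 were higher in CTx than in xINJ muscle of DTR- mice at day 4 and at day 8. The same number were higher in DTR+ mice at day 8 (medians 1.47, 1.90 and 2.39). Their mean in DTR- mice was 11.29 to 11.60 in CTx and 9.88 to 10.11 in xINJ muscle at day 4, and 10.80 to 11.18 and 9.11 to 9.30 at day 8. Their CTx minus xINJ difference in DTR- mice changed from day 4 to day 8 by a median of 0.44 with none called. That of Acta2 changed by -1.28. Between these days 2 of the 7 markers were lower at day 8 in DTR- CTx samples and 1 in DTR+ ones, where 18% and 8.24% of all genes were lower. Their part in the Acta2 differences was not tested. Ankrd1, Csrp3 and Actc1 are also heart genes: of 7 cardiac muscle markers, 5 passed the filter and Ryr2 and Tbx5 did not. The mean over the 7 stayed at 6.22 to 6.75, near the filter level of 6.62 to 6.84.

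**Figure D3:**
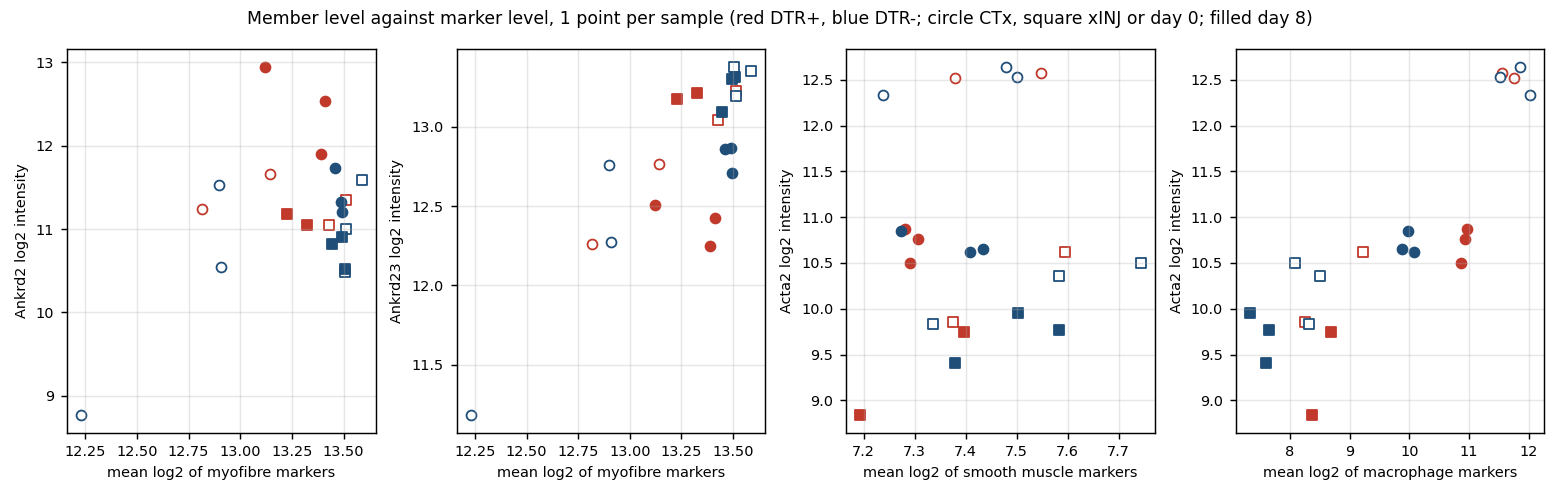
Log2 intensity of Ankrd2, Ankrd23 and Acta2 (y axes) is set against the mean log2 of myofibre, smooth muscle or macrophage markers (x axes), 1 point per sample; red is DTR+, blue DTR-, circles are CTx, squares xINJ or day 0, filled symbols are day 8. The sample at a myofibre mean of 12.23 is also the lowest for Ankrd2 (8.76) and Ankrd23 (11.18), and Acta2 spans 8.84 to 12.64 while the smooth muscle mean spans 7.19 to 7.74.

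The partners of these genes showed their own patterns. Of 33 Z-disc and I-band genes, 4 were higher and 16 lower in DTR- CTx than in xINJ muscle at day 4 (median -0.48), where 26.1% of all genes were higher and 20.5% lower. At day 8, 6 were higher and none lower (median 0.02), where 10.4% of all genes were higher and 3.17% lower. At day 4 the LIM gene Csrp2 was higher by 2.00 and Fhl2 by 0.98, while the titin-cap gene Tcap was lower (difference -2.24) and Myoz1 (difference -1.63). Csrp2, a close relative of Csrp3, then fell by 1.57 from day 4 to day 8 (difference -1.57, adjusted p = 5.9e-06, limma). The calcineurin-binding Z-disc gene Myoz2 was higher by 0.76 and the Xin actin-binding repeat gene Xirp1 by 0.96 in DTR- CTx muscle at day 8, and by 1.51 and 1.10 in DTR+ mice. In DTR+ mice at day 8, 8 of the 33 were higher and 4 lower (16.7% and 8.51% of all genes), among the latter the ubiquitin ligase gene Trim63 (difference -2.38). Between genotypes, Xirp1 was higher by 0.82 in DTR+ CTx muscle at day 8 (adjusted p = 0.0494, limma), and in xINJ muscle Ky differed by -2.36, Ankrd33b by 0.93 and Trim63 by 1.70. The Xirp1 call was lost in 9 of its alternatives (adjusted p up to 0.203), and those of Ky, Ankrd33b and Trim63 were lost without DTR+ xINJ day 8 replicate 1 (adjusted p = 0.104, 0.149 and 0.339). The Trim63 call was lost in 4 of the 5 fits that left out a sample. Of 13 developmental sarcomere genes, 9 were higher and 3 lower at day 4 and 10 higher at day 8 in DTR- CTx muscle (median 2.56 and 2.17), against 46.6% and 13.5% of all genes called. At day 4 the embryonic myosin heavy chain gene Myh3 was higher by 4.64 and Chrng, the fetal acetylcholine receptor subunit gene, by 4.11. Of the embryonic and slow thin-filament genes, Tnni1 was higher by 3.67 at both days, Tnnc1 by 3.63 at day 4 and Tnnt2 by 3.45 at day 4. The perinatal myosin heavy chain gene Myh8 was higher by 3.36 at day 8. In CTx muscle at day 8 Tnnc1 was higher in DTR+ than in DTR- mice by 1.20 (adjusted p = 0.00803, limma) and Myl6b by 0.74 (adjusted p = 0.0324, limma). Without DTR+ replicate 3 neither passed (adjusted p = 0.0588 and 0.215). The Myl6b call was lost in 5 of the 6 fits that left out a sample and in a fit of those groups alone (adjusted p = 0.094).

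Of 22 SRF and MRTF targets, actin-cytoskeleton and immediate early genes, 16 were higher and 1 lower in DTR- CTx muscle at day 4 (median 0.90), and 10 higher and 1 lower at day 8. The shares of all genes called there were 46.6% and 13.5%. The calponin gene Cnn3 was higher by 1.99 and filamin A (Flna) by 1.37 at day 4. From day 4 to day 8, 13 of the 22 fell, among them Cnn3 (difference -1.33) and Tagln (difference -1.11), and 1 rose, where 18% of all genes were lower and 11.6% higher. In DTR+ CTx muscle 9 fell, among them Tagln (difference -1.04) and Myl9 (difference -1.71), and 1 rose, where 8.24% of all genes were lower and 2.84% higher. Of 19 YAP and TEAD targets, CTx against xINJ in DTR- mice at day 4 had 6 higher and 4 lower, a share near the 46.6% of all genes called. Axl was higher by 1.36 and Crim1 lower (difference -1.65). DTR+ muscle at day 8 had 7 higher and 1 lower, against 16.7% and 8.51% of all genes. Among the factors of these pathways, Tead4 was higher by 1.20 and Vgll3 by 1.56 in DTR- CTx muscle at day 4. Between genotypes in CTx muscle at day 8, F3 and Ccn1 of the YAP and TEAD targets were higher in DTR+ mice by 0.83 and 0.75 (adjusted p = 0.0027 and 0.0334, limma), against 3.03% of all genes. The Ccn1 call was lost in 4 of the 6 fits that left out a sample (adjusted p up to 0.216) and in a fit of those groups alone (adjusted p = 0.066). None of the SRF and MRTF targets passed limma there, and 5 of 22 had an unadjusted p under 0.05. The cytoplasmic actin gene Actb was higher in CTx muscle of DTR- mice by 0.89 at day 4 and by 0.58 at day 8; the gene for cytoplasmic gamma actin was matched to no probe set with a single symbol. In CTx muscle at day 4 none of the genes in these lists passed limma between genotypes. At an unadjusted p under 0.05 there were 4 of the 33 Z-disc and I-band genes and none of the SRF and MRTF, YAP and TEAD or developmental sarcomere genes.

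**Figure D4:**
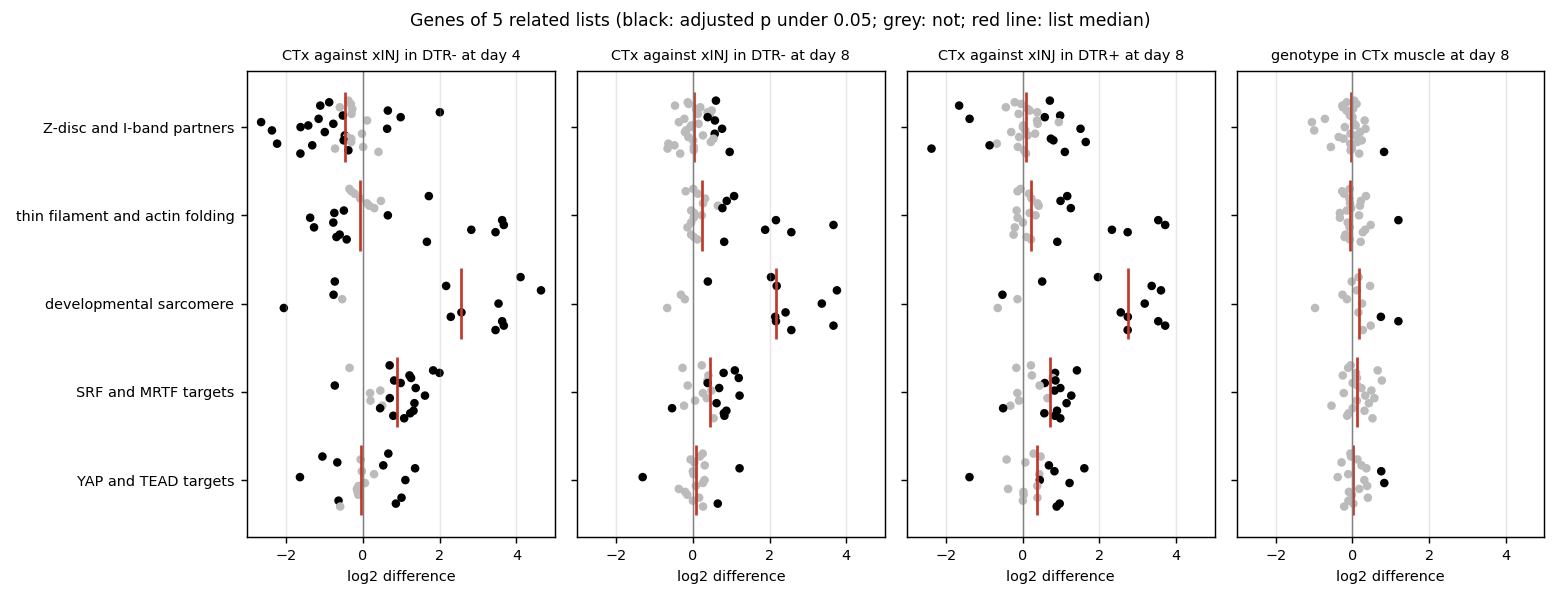
Each row is a gene list and each panel a comparison; points are genes by log2 difference (x axis), black where the adjusted p is under 0.05, with a red line at the list median. Developmental sarcomere genes shift farthest right (medians 2.56 at day 4 and 2.17 at day 8 in DTR- mice), and in the genotype panel few genes of any list are black.

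The genes whose profile over the 21 samples was most like that of each member, by Pearson r as a description, were these. Ankrd1 was closest to Myl6b (r = 0.957), a myosin light chain gene, and Csrp3 to Myoz2 (r = 0.935). Acta2 was closest to Abr (r = 0.983) and Actc1 to Mamstr (r = 0.974), a cofactor of the myogenic factor MEF2. Ankrd23 was closest to Adssl1 (r = 0.964), the muscle adenylosuccinate synthase gene, Acta1 to Ets2 (r = 0.899) and Ankrd2 to Hspb7 (r = 0.84). Among the members, Ankrd1 and Csrp3 had r = 0.853, Acta2 and Actc1 had r = 0.847, and Ankrd1 and Ankrd23 had r = -0.693. After the mean of each group was removed, over 19 samples, Ankrd2 and Ankrd23 had r = 0.869, to which DTR- CTx day 4 replicate 1 contributes both low values, and Ankrd2 and Csrp3 had r = 0.72. These values follow the same samples and groups, so they carry no p-value. Of the 3 genes most alike, none was the same for Acta1 when arrays were centred on their median, and 1 was the same for Ankrd1 and for Csrp3 without both groups of a single sample.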

How the data were processed

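The authors deposited linear intensities per probe set (Affymetrix Power Tools with RMA, per the submitters' processing notes; versions not given in the sources used here); 24922 probe sets were read and log2 values taken. Probe sets with 1 symbol (21425; 1399 had several) were kept, and per gene the one with the highest mean (19752 genes). Genes above the array's 40th percentile on at least 2 arrays (13278) were fitted with limma 3.58.1 in R 4.3.3, a mean per title group over all 21 samples, 12 residual degrees of freedom. The fit was tested on simulated data. Members and lists were chosen with earlier results of these data known. Named genes are the members, up to 4 per list and comparison with the smallest p, the 3 most alike per member and 7 single markers; Foxp3, Xirp1 in DTR+ mice, Myh3, and the markers Mylk, Synpo2, Myocd, Ryr2 and Tbx5 were chosen after their values were seen. Promoters are from RefSeq tables of GRCm38.p6. Alternatives covered scaling, filter, probe set choice, groups in the fit, variance model, the doubtful sample, each replicate and the title number as a block. Deviations of same-numbered samples of DTR- and DTR+ CTx muscle had correlations over genes of 0.545, 0.391 and 0.234 at day 8. At day 4 these were -0.448 and -0.069. Between CTx and xINJ muscle they were 0.313 and 0.297 in DTR+ mice at day 8. In DTR- mice they were 0.064, 0.015 and 0.343 at day 8 and 0.468, 0.145 and -0.208 at day 4. Samples of unlike number were not compared, so this check cannot say whether the numbers pair samples. Precision is limited by how few arrays each group has.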

Additional observations from a re-analysis of the deposited data

Results flagged for a closer look

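The CTx minus xINJ difference of Acta2 in DTR- mice changed between days, by -1.28 on the log2 scale: it was 2.27 at day 4 and 0.99 at day 8. The interaction term of the limma fit tested this difference itself (SE 0.30, adjusted p = 0.00931), and leaving out each of the 12 samples in turn gave -1.43 to -1.08 with adjusted p from 0.00832 to 0.0278. Macrophage markers changed in the same direction. Their mean at day 4 and day 8 was 11.80 and 9.98 in CTx muscle and 8.30 and 7.53 in xINJ muscle. Regenerating myofibre markers did so too, at 11.58 and 10.09 in CTx muscle and 8.22 and 7.68 in xINJ muscle. In the interaction test 7 of 9 macrophage and 3 of 8 regenerating myofibre markers were lower, where 12.5% of all genes were called in either direction. The smooth muscle marker mean was 7.40 and 7.37 in CTx muscle. The part of any of these was not tested. Groups held at most 3 samples, and Dixon's ratio was not computed for groups of that size.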

How the results depend on the processing

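Array scaling, the filter, the probe set rule, the groups in the fit, the variance model, the day of the doubtful sample, each replicate and the title number were varied. The calls of Ankrd1, Acta2 and Actc1 as higher in CTx than in xINJ muscle of DTR- mice at both days, those of Csrp3 at day 8 in both genotypes, those of Acta2 and Actc1 in DTR+ mice at day 8, and the fall of Acta2 in CTx muscle held in all of these. In xINJ muscle at day 8, 2 members were called between genotypes with quantile normalization and 2 with the doubtful sample at day 8, against 1, and 0 to 2 when a sample was left out. From day 4 to day 8 in DTR+ CTx muscle, 2 were called with quantile normalization, 2 in a fit of those groups alone and 3 with the replicate block, against 1, and 1 to 2 when a sample was left out. In DTR- xINJ muscle the 1 call between days became 0 with quantile normalization, in a fit of those groups alone, with trend and robust variance, with the doubtful sample at day 8, and without both DTR- day 4 samples numbered 1 (an alternative chosen after seeing the data), and 0 to 1 when a sample was left out. The difference between days in the CTx effect of DTR- mice had 2 members with the doubtful sample at day 8, against 1, and 1 to 3 when a sample was left out. From day 4 to day 8 in DTR- CTx muscle, 1 was called without the samples numbered 1, against 2, and 1 to 3 when a sample was left out. The replicate block changed no other count of called members by over 1.5 times. The changes of sign were all in values not called. Centring arrays turned Acta1 for CTx against xINJ in DTR- mice at day 8 to -0.0395 and Ankrd1 between days in DTR- CTx muscle to 0.0037. Quantile normalization turned Acta1 to -0.0132 between genotypes in CTx muscle at day 4, to 0.0218 for CTx against xINJ in DTR- mice at day 4 and to 0.0191 between days in DTR- xINJ muscle, Ankrd1 to 0.0376 between days in DTR- CTx muscle, and Ankrd23 to 0.0169 between days in DTR+ CTx muscle. The replicate block turned Acta2 to -0.0734 and Actc1 to -0.0212 between genotypes in CTx muscle at day 4, and Ankrd23 to 0.068 in xINJ muscle at day 8. With the doubtful sample at day 8, Ankrd23 between days in DTR- xINJ muscle was 0.0013. Without the samples numbered 1, the genotype differences in CTx muscle at day 4 were -0.0046 for Ankrd1, 0 for Ankrd23, -0.0366 for Acta2 and -0.0242 for Actc1. Leaving out samples gave ranges that crossed 0 between genotypes in CTx muscle at day 4 for Ankrd1 (-0.0109 to 0.37), Ankrd23 (0 to 0.79), Acta2 (-0.0366 to 0.12) and Actc1 (-0.0335 to 0.0786), and in xINJ muscle at day 8 for Acta2 (-0.87 to 0.0373) and Csrp3 (-0.36 to 0.0041). The same held for CTx against xINJ in DTR- mice at day 4 for Ankrd2 (-1.36 to 0.015). It held between days in CTx muscle for Ankrd1 in DTR- (-0.15 to 0.23) and Ankrd23 in DTR+ mice (-0.38 to 0.13). In DTR- xINJ muscle it held between days for Ankrd1 (-0.325 to 0.16), Ankrd2 (-0.54 to 0.0081) and Ankrd23 (-0.13 to 0.0008), and for the difference of CTx effects of Ankrd1 (-0.18 to 0.31). The cause of these changes was not tested. Centring moved the median difference of all genes to -0.12 for CTx against xINJ in DTR- mice at day 4 and to -0.10 in DTR+ mice at day 8. It moved the share of calls that were higher from 56.1% to 44.3% and from 66.3% to 46.1%; at day 8 in DTR- mice it went from 76.6% to 62.6%. Of 147 list gene results, 109 kept their call in all alternatives run and none changed sign. Groups of 1 to 3 arrays limit the precision.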
